A study of Mus musculus with 6 samples.

Results

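The genes of G2 and mitosis were examined in mouse bone marrow cells of the granulocyte lineage, as a list of 49 genes, of 19057 named on the array, read by 96 probes. A gene was taken through every probe whose platform annotation carries its symbol, and the probe with the highest mean log2 intensity stood for it. Of the 49 genes, 40 had such a probe above the median of all probes and entered the test among 15440 features, and 9 were dimmer and are given apart. RNA came from 2 bone marrow populations that the labels define by Ly6C, a surface antigen high on classical monocytes: Ly6C low cells, called granulocytic progenitors (GP, n = 3 arrays), and Ly6C high cells, called monocyte-like precursors of granulocytes (MLPG, n = 3 arrays). Strain, age, sex and any tumour of the donor mice, further sort markers and the number of animals behind a sample are stated by no label. P-values set the difference between group means against the spread among the arrays of a group, and that spread may therefore be technical. The series title ties MLPG to the accumulation in cancer of PMN-MDSC, the neutrophil-like suppressor cells, and the comparison made here asks whether the populations differ in the RNA of the dividing phase of the cycle.

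Cells that have copied their DNA accumulate cyclin B bound to the kinase Cdk1, which drives entry into mitosis. Aurora and Polo-like kinases then build the spindle, the kinetochore joins chromosomes to it, a checkpoint holds the anaphase-promoting complex until every chromosome is attached, and kinesins and a contractile ring split the cell. Transcription of these genes peaks late in the cycle: the MuvB complex, with repressors in resting cells and with B-Myb and Foxm1 in dividing cells, binds an element named CHR (cell cycle genes homology region), often beside CCAAT boxes bound by NF-Y. In marrow, early granulocyte progenitors divide, and division ends as neutrophils mature.

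The promoters of the listed genes share these elements, which the choice of genes did not use. RefSeq promoters of build GRCm38.p6, 250 bases before to 50 after each annotated start, matched 42 of the 49 genes by symbol and gave 44 promoters. The letters CCAAT, searched on both strands, stood in 37 of 44 (84.1%), against 37.4% of all 32851 promoters and 37.8% of the 11734 promoters of the named genes tested. The CHR letters TTTGAA or TTCGAA, on either strand, stood in 37 of 44 (84.1%), against 19.2% of all promoters and 14.3% of those of the genes tested. Both elements stood in 34 of 44 (77.3%), against 7.52% and 5.99%, and in 1 of the 44 a match of one overlapped a match of the other. The share was lower in other lists of the cycle: 23 of 79 promoters (29.1%) of the other listed G2 and mitosis genes tested held both, with CCAAT in 55.7% and CHR letters in 51.9%, and so did 5 of 37 (13.5%) of the S phase and DNA replication genes tested. Birc5, Melk, Nuf2 and Nusap1 held neither set of letters in this window. The 7 sequences shown here are the 120 bases that end just before the start. They are those of Cdk1, with 2 matches of each element, of the anaphase-promoting complex activator Cdc20 and of its enzyme Ube2c. The others are of the spindle motor Kif11, the central spindle protein Prc1 (1 of its 2 listed starts), and Top2a and Hmgb2, whose values are taken up later. Capitals mark CCAAT or its reverse complement ATTGG, and TTTGAA, its reverse complement TTCAAA, or TTCGAA.
Cdk1, chr10:69352913-69353032, minus strand: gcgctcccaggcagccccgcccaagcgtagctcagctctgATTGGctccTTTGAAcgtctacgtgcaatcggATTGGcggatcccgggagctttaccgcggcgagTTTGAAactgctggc
Cdc20, chr4:118437344-118437463, minus strand: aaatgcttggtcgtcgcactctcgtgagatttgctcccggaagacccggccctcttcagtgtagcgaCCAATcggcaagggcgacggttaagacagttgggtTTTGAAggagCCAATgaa
Ube2c, chr2:164769809-164769928, plus strand: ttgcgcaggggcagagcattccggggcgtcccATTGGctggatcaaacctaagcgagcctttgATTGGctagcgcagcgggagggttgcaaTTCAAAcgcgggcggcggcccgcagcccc
Kif11, chr19:37376262-37376381, plus strand: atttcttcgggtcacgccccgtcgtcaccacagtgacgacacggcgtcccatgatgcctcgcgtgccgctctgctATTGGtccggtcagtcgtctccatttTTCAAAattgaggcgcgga
Prc1, chr7:80294356-80294475, plus strand: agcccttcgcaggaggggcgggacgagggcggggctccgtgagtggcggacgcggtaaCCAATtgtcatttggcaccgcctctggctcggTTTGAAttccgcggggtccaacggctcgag
Top2a, chr11:99024190-99024309, minus strand: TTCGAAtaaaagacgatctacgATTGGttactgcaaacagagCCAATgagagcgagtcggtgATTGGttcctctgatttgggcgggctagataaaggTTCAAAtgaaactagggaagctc
Hmgb2, chr8:57511723-57511842, plus strand: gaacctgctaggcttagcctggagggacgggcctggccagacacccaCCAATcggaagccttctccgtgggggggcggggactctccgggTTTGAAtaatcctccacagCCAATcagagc
In these windows the CHR letters nearest to the start begin at -15 in Cdk1, -18 in Cdc20, -19 in Kif11, -23 in Top2a, -29 in Ube2c and -30 in Prc1 and Hmgb2, counted in bases from the start. Of 49 CHR matches over the 44 promoters, 32 began within 40 bases of the start, and of 95 CCAAT matches 68 began in the 130 bases before it. Ect2 and Prc1 each gave 2 overlapping promoters, so the matches these share are counted in both. A match is a match of letters and says nothing of binding in these cells.

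**Figure D1:**
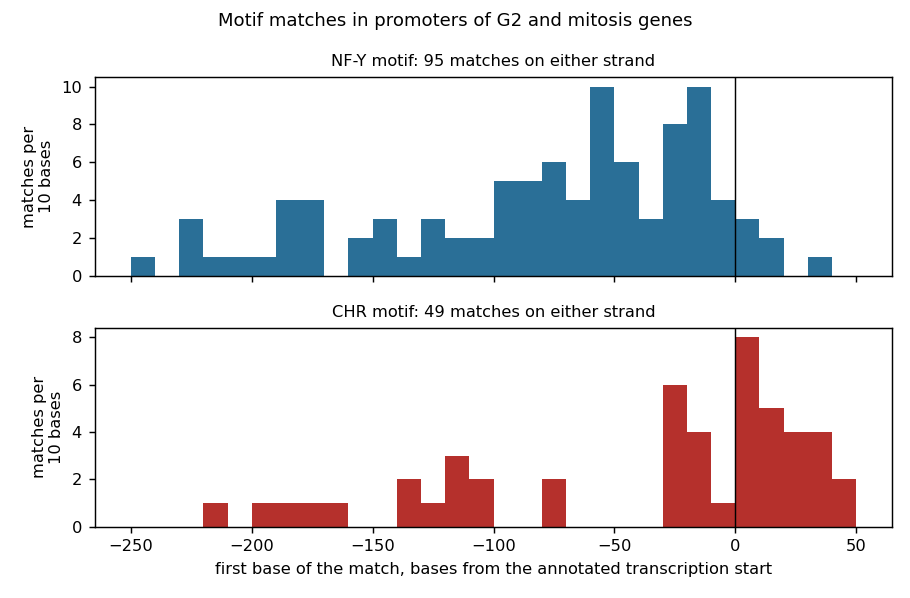
Position of motif matches in the 44 promoters of G2 and mitosis genes, as matches per 10 bases against the distance of their first base from the annotated transcription start (bases; the line at 0 is the start, and the window runs from 250 bases before to 50 bases after it). The 49 CHR matches gather around the start, and the 95 CCAAT matches of the NF-Y motif lie mostly upstream of it. Matches shared by the overlapping promoters of Ect2 and of Prc1 are counted in each.

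Values are the normalized probe intensities that the authors deposited, and each difference is a log2 value of MLPG minus the same of GP. The 6 arrays share 1 distribution (median 179.3, highest value 71674, sorted columns equal within 0.14%), so an array cannot be brighter than another as a whole, and the deposited values hold background that pulls the fold changes of dim probes towards 1. One GP array, replicate 1, was the highest for most of these genes and was singled out after its values were seen. Another, GP replicate 2, was the lowest for 21 of the 40. Each of the 40 measured genes was higher on GP replicate 1 than on the mean of GP replicates 2 and 3. This held for 51% of all features. Results for the list as a whole, and for some single genes, are therefore given with and without GP replicate 1. Other differences of single genes are over all 6 arrays, and some change sign without GP replicate 1. Ncapg moved from -0.05 to 0.17 and Kif23 from -0.04 to 0.12. Of the granule genes of the lineage, Mpo lay between 66265 and 71012 and Elane between 67317 and 70847, near the top of the scale. Both differed little between the groups (0.02 and 0.05), but probes so near the top of a shared distribution have little room to differ. They bear on the lineage, and their small differences say nothing of the sort into GP and MLPG. In bulk RNA, fewer dividing cells and less mitotic RNA per dividing cell cannot be told apart.

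Between the populations, the G2 and mitosis genes were close. None of the 40 measured genes passed the test (limma, adjusted p under 0.05 over all features), beside 79 of 15440 features (0.512%; 0.142% higher and 0.369% lower in MLPG). At an unadjusted p under 0.05 there were 3, Aurkb, Cdk1 and Ckap2, each with the higher mean in MLPG, against a background of 14.7% of features (7.23% higher, 7.42% lower). With the replicate number as a block, 0 of the 40 passed (limma; 5 at an unadjusted p under 0.05, against 21.2% of features) while 4.08% of all features were called. The groups did not overlap for 4 of the 40, Cdk1, Aurkb and Top2a higher and Ndc80 lower in MLPG, against 20.4% of features (10.7% higher, 9.66% lower). The log2 differences ran from -0.26 (Hmgb2) to 0.28 (Ckap2), 21 above 0 (51.7% of features were) and 19 below, with a median of 0.02 beside 0.01 over all features. For 36 of the 40, the 95% interval of the difference lay within 1.5-fold either way, which held for 82.4% of features, and for all 40 of those measured it lay within 2-fold, which held for 96.2%. Cdc25b, Spc25, Ect2 and Hmgb2 were the 4 whose interval reached past 1.5-fold.

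**Figure D2:**
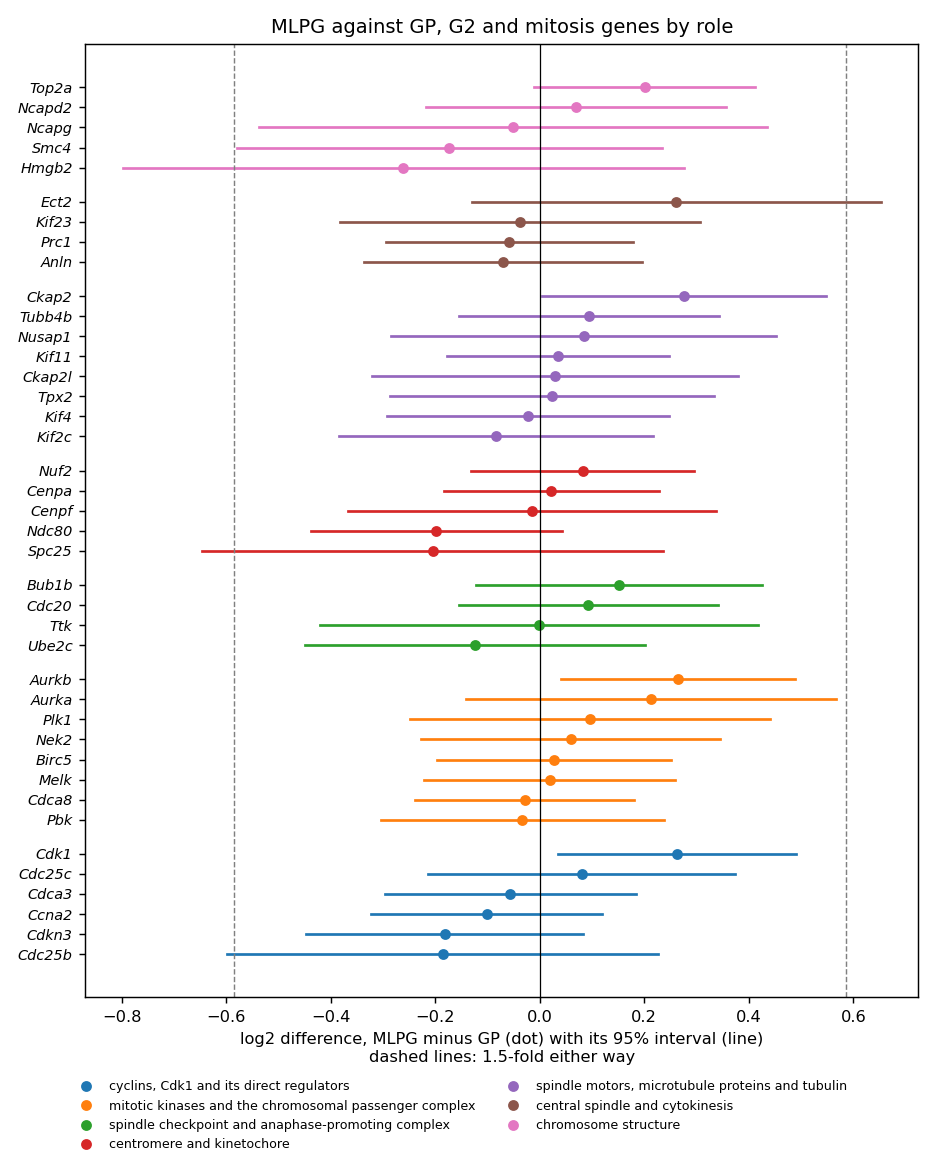
Log2 difference, MLPG minus GP, of the 40 measured G2 and mitosis genes in 7 role groups (dot) with the 95% interval of limma (line). Dashed lines mark 1.5-fold either way. Dots lie on both sides of 0 in each role group, and the intervals of Cdk1, Aurkb and Ckap2 lie just above 0.

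Cyclins, Cdk1 and its direct regulators set the time of entry into mitosis. Cdk1 was at 13080, 10865 and 12311 on GP replicates 1 to 3 and at 14615, 13784 and 14981 on MLPG replicates 1 to 3. Every MLPG value of Cdk1 exceeded every GP value, and the difference of 0.26 ± 0.10 (SE), 1.20-fold with a 95% interval of 1.02 to 1.41, did not pass (adjusted p = 0.28 in limma). Dimmer probes of Cdk1 differed by 0.13 and 0.00. The phosphatases that activate Cdk1 lay on both sides of 0 over all arrays, with Cdc25b at -0.19 and Cdc25c at 0.08. Without GP replicate 1 both lay above 0, with Cdc25b at 0.02 and Cdc25c at 0.21. Ccna2, the S phase and G2 cyclin, differed by -0.10, the phosphatase Cdkn3 by -0.18, and Cdca3, an adaptor in the degradation of the Cdk1 inhibitor Wee1, by -0.06. All of these lay at an adjusted p of 0.52 or above over all arrays (limma).

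Mitotic kinases and the chromosomal passenger complex showed the smallest p of the list. Aurkb, the kinase of that complex, was at 9504, 8361 and 8101 on the GP arrays and at 9931, 10936 and 10273 on the MLPG arrays. The groups did not overlap, and the difference of 0.26 ± 0.10 (SE), 1.20-fold with an interval of 1.03 to 1.40, did not pass (limma adjusted p = 0.27, or 0.18 with the replicate block). Of its partners in the complex, Cdca8, borealin, differed by -0.03 on its brightest probe and 0.13 on the dimmer, and Incenp, the scaffold, by 0.12. Birc5, survivin, differed by 0.03 on its brightest probe and by 0.07 and 0.20 on the dimmer ones. The 95% intervals of Aurkb (0.04 to 0.49), Birc5 (-0.20 to 0.25) and Cdca8 (-0.24 to 0.18) overlapped, and no difference between these genes was tested. Birc5 lay at 15003, 12656 and 13169 in GP and at 13791, 14431 and 13307 in MLPG, so that the MLPG values fell inside the GP range. Plk1, which acts from mitotic entry to cytokinesis, was at 17026, 12212 and 13455 in GP and at 15345, 13066 and 17026 in MLPG. The Plk1 groups overlapped over most of their range (difference 0.10, adjusted p = 0.83 in limma). Aurka, the spindle pole kinase, differed by 0.21, the centrosomal kinase Nek2 by 0.06, and the kinases Pbk and Melk by -0.03 and 0.02, none past the test.

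Among genes of the spindle checkpoint and the anaphase-promoting complex, the widest difference was that of Bub1b, which encodes the checkpoint protein BubR1. It was at 14643, 11708 and 15345 in GP and at 15395, 14585 and 16068 in MLPG. GP replicate 2 was low and the other GP arrays reached into the MLPG range (difference 0.15, adjusted p = 0.61 in limma). Cdc20, which the checkpoint holds inactive, was at 13900, 11368 and 11153 in GP and at 12543, 13286 and 12845 in MLPG. GP replicate 1 was the highest of the 6 arrays for Cdc20 and the other GP arrays the lowest (difference 0.09, adjusted p = 0.75 in limma). The checkpoint kinase gene Ttk differed by 0.00 and Ube2c by -0.12.

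Of the centromere and kinetochore genes, Ndc80 and Spc25 encode subunits of one microtubule-binding complex. Ndc80 was at 7153, 5769 and 5975 in GP and at 5441, 5371 and 5592 in MLPG. Every MLPG value lay below every GP value, and the difference of -0.20 ± 0.10 (SE) did not pass (adjusted p = 0.43 in limma). Spc25 was at 7976, 4718 and 5053 in GP and at 5056, 5357 and 4582 in MLPG. Its difference of -0.21 ± 0.19 (SE) came with 1 high array: without GP replicate 1 it was 0.03. A dimmer probe of Spc25 differed by -0.001 over all arrays. The remaining subunit on the list, Nuf2, differed by 0.08. Cenpa, the histone that marks centromeres, was at 49761, 43827 and 45178 in GP and at 48610, 46120 and 46051 in MLPG, an overlap with a difference of 0.02 on a probe near the top of the scale. Cenpf differed by -0.01.

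Spindle motors and microtubule proteins gave the largest difference above 0. Ckap2, a microtubule-stabilizing protein of the spindle, was at 2116, 1644 and 1703 in GP and at 2348, 2140 and 2089 in MLPG. GP replicate 1 lay between MLPG values and the other GP arrays lay below them. The difference of 0.28 ± 0.12 (SE), 1.21-fold with an interval of 1.00 to 1.46, did not pass (limma adjusted p = 0.34, or 0.14 with the replicate block). Its relative Ckap2l differed by 0.03. Kif11, the motor that pushes spindle poles apart, differed by 0.04, the depolymerizing kinesin Kif2c by -0.08, the chromokinesin Kif4 by -0.02, the spindle assembly factor Tpx2 by 0.02, Nusap1 by 0.08 and the beta-tubulin gene Tubb4b by 0.09.

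Cytokinesis was represented by 4 measured genes. Ect2, an exchange factor needed for cytokinesis, was at 917, 580 and 739 in GP and at 976, 779 and 889 in MLPG. GP replicate 1 lay inside the MLPG range and the other GP arrays below it (difference 0.26 ± 0.17 SE, adjusted p = 0.53 in limma). Anln, the scaffold of the contractile ring, differed by -0.07, and Prc1 and Kif23, which bundle and organize the central spindle, by -0.06 and -0.04.

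Genes of chromosome structure had the least precise differences of the 7 role groups, with a median half-width of the 95% interval of 0.41 on the log2 scale. Hmgb2, a DNA-bending protein of dividing cells, was at 12170, 7549 and 6912 in GP and at 9011, 5903 and 6936 in MLPG. Replicate 1 was the highest array in both groups, and the groups overlapped (difference -0.26 ± 0.23 SE, adjusted p = 0.66 in limma). Without GP replicate 1 the Hmgb2 difference was -0.01. Top2a, the topoisomerase that untangles chromosomes, was at 17865, 15815 and 17562 in GP and at 20713, 19259 and 18874 in MLPG on its brightest probe. The groups did not overlap on that probe (difference 0.20 ± 0.09 SE, adjusted p = 0.36 in limma), but the dimmer probes of Top2a pointed the other way, at -0.29 and -0.27 (unadjusted p = 0.15 and 0.042 in limma), so the array gives Top2a no settled direction. Of 23 measured genes with several probes above the filter, Top2a was the only 1 with probes beyond 0.1 in both directions. The condensin genes Smc4, Ncapd2 and Ncapg differed by -0.17, 0.07 and -0.05. A dimmer Ncapg probe stood at 0.22 and a dimmer Kif11 probe at -0.22 (unadjusted p = 0.044 and 0.043 in limma).

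The wider variation of these genes lay within GP. Taken as each gene's log2 value minus its mean over the 6 arrays, the median of the 40 genes was 0.20, -0.16 and -0.09 on GP replicates 1 to 3 and 0.06, -0.01 and -0.01 on MLPG replicates 1 to 3. Over all features the 6 medians lay between -0.01 and 0.01. GP replicate 1 was alone the highest of the 6 arrays for 30 of the 40, against 26% of features, and GP replicates 2 and 3 were the highest for 0. GP replicate 2 was alone the lowest for 21 of the 40, against 16.2% of features. The standard deviation among GP arrays exceeded that among MLPG arrays for 39 of the 40, against 63.8% of features, with medians of 0.20 and 0.09 on the log2 scale. With 1 array apart in a group of 3, no test of that array was made.

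**Figure D3:**
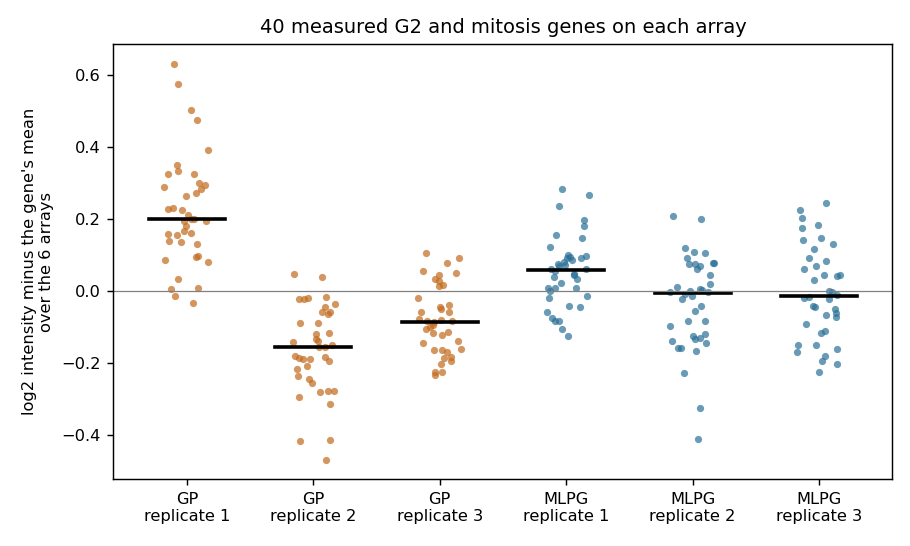
Log2 intensity minus the gene's mean over the 6 arrays (y axis) for the 40 measured G2 and mitosis genes on each array; each dot is a gene and each black bar the median. The cloud of GP replicate 1 is centred at 0.20, those of GP replicates 2 and 3 at -0.16 and -0.09, and the MLPG clouds lie between, at 0.06, -0.01 and -0.01.

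GP replicate 1 exceeded the mean of the other GP arrays by a median of 0.30 over the 40 genes, 1.23-fold, and from 0.08 for Kif11, 1.06-fold, to 0.75 for Hmgb2, 1.69-fold. Spc25 stood at 1.63-fold, the condensin gene Ncapg at 1.60-fold and Cdc25b at 1.53-fold. At the low end behind Kif11 were Top2a at 1.07-fold, Bub1b at 1.09-fold and Cenpa at 1.12-fold. GP replicate 2 exceeded the mean of its partners, GP replicate 1 among them, for 1 of the 40, with a median of -0.22. GP replicate 3 did so for 9, with a median of -0.10. Over all features the shares were 50.9% and 47.5%. Among MLPG arrays, replicate 1 exceeded the mean of its partners for 29 of the 40 by a median of 0.05, replicate 2 for 14 and replicate 3 for 19. On all probes of the listed genes above the filter, dimmer ones included, GP replicate 1 was alone the highest for 55 of 77.

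**Figure D4:**
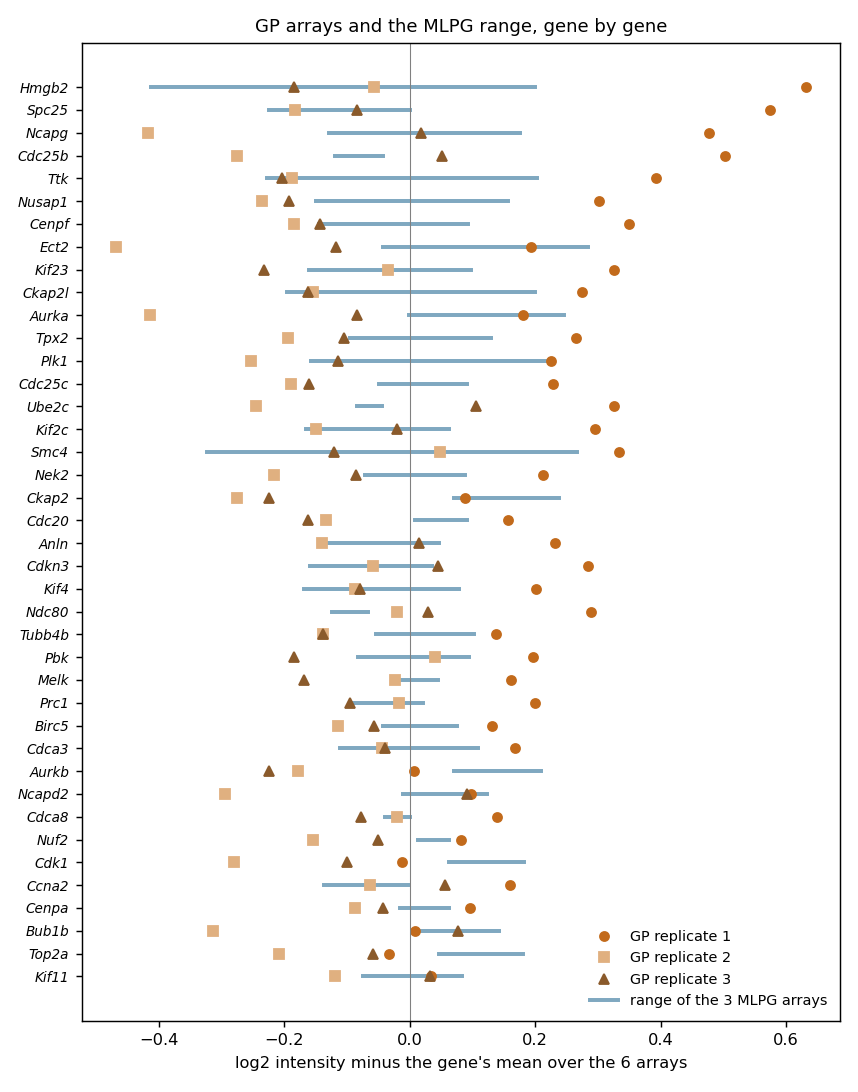
The 3 GP arrays (symbols) and the range of the 3 MLPG arrays (blue line) for each of the 40 measured genes, as log2 intensity minus the gene's mean over the 6 arrays, ordered by the excess of GP replicate 1 over its partners. GP replicate 1 lies right of the mean of the other GP arrays for each of the 40, from Kif11 at the bottom to Hmgb2 at the top.

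Leaving out GP arrays moved the balance of signs. Without GP replicate 1, 35 of the 40 differences lay above 0 (52.7% of all features) with a median of 0.13; 0 passed the test (limma), and 5 had an unadjusted p under 0.05 against 10.8% of features. Without GP replicate 2, 12 of the 40 lay above 0 and the median was -0.04, and without GP replicate 3 18 lay above 0 and the median was -0.05. The sign of the list's median in MLPG against GP thus rested on which GP array was in the fit. Under each of 13 alternatives, 15 of the 40 kept one sign, 10 above and 5 below 0. No share over all features stands beside this count, and the alternatives reuse the same 6 arrays. Above 0 were Cdk1 (0.13 to 0.32), Aurkb (0.22 to 0.33), Ckap2 (0.21 to 0.39) and Ect2 (0.09 to 0.42). Also above 0 were Aurka (0.059 to 0.356), Bub1b (0.033 to 0.228) and Cdc20 (0.036 to 0.195). So were Cdc25c (0.006 to 0.214), Nuf2 (0.025 to 0.145) and Tubb4b (0.048 to 0.185). Below 0 were Ndc80 (-0.26 to -0.10), Ccna2 (-0.166 to -0.047), Cdkn3 (-0.256 to -0.085), Smc4 (-0.349 to -0.027) and Hmgb2 (-0.426 to -0.01). None was called under any of them.

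Other gene lists differed on the same array. The 83 tested of 94 other listed genes of G2 and mitosis followed the same course. Of these, 77 lay above 0 on GP replicate 1 against its partners, with a median of 0.25. Over all features, 51% lay above 0, with a median of 0.01. Of 44 tested S phase and DNA replication genes, the programme just before G2, 18 lay above 0 and the median was -0.09. Among S phase genes, GP replicate 1 was the highest array for 5 of the 44 and the lowest for 16, against 26% and 25.5% of features. Some marker lists of other cells and states also differed on that array, and others did not. Its median log2 difference from its partners was 0.03 for granulocyte progenitor, -0.02 for B cell and -0.05 for megakaryocyte markers. For T and NK cell markers the median was 0.10, and for basophil and mast cell markers -0.285. GP replicate 1 was the highest of the 6 for 8 of 11 erythroblast markers. Their summed intensity was 24046, 19756 and 17112 on GP replicates 1 to 3 and 14329 to 18381 in MLPG. The others, Tfrc, Gata1 and Epor, were highest on GP replicate 2. Tfrc, the brightest of the 11, was lowest of the 6 arrays on GP replicate 1, at 8921. On GP replicate 1 the sum over 7 eosinophil markers was 56584, against 133506 and 119729 on the other GP arrays and 4596 to 7715 in MLPG. Over 12 monocyte markers its sum was 13315, against 34281 and 22154 in GP and 52212 to 59691 in MLPG, and over 10 mature neutrophil markers 150566, against 102863 and 140818 in GP and 47528 to 61245 in MLPG. Of 8 stem and early progenitor markers, 1 was higher on it than on the mean of its partners, with sums of 2255, 4265 and 2677 in GP and 2220 to 2522 in MLPG. All 12 handling stress genes were lower on it than on the mean of its partners, with sums of 121296, 148626 and 138001 in GP and 108045 to 165749 in MLPG. None of these markers is at 0, since background remains in the values, and their part in the G2 and mitosis values was not tested.

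**Figure D5:**
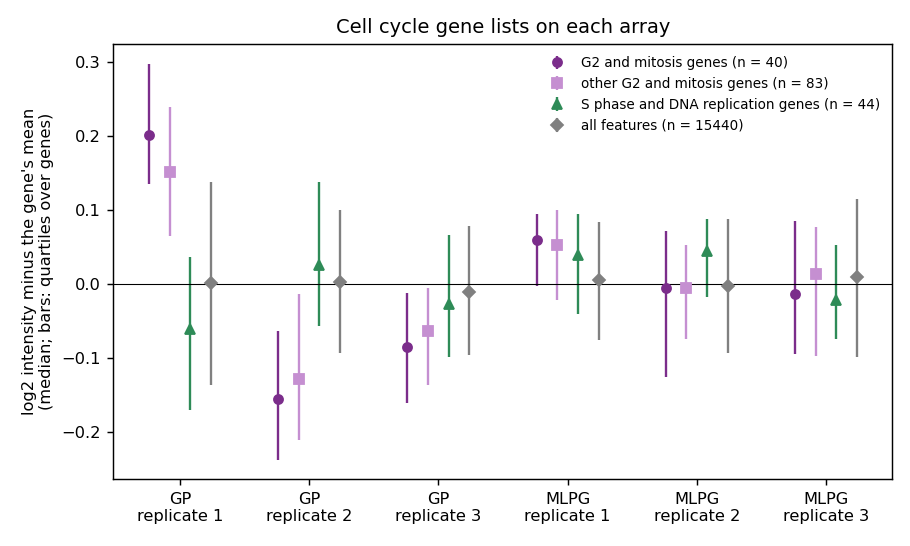
Median over genes of the log2 intensity minus the gene's mean over the 6 arrays (y axis), with bars from the lower to the upper quartile over genes, for 4 sets of features on each array. On GP replicate 1 both G2 and mitosis lists stand at 0.20 and 0.15 while the S phase list stands at -0.06; on the MLPG arrays the lists lie within 0.06 of 0.

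Between the populations, the other genes of the pathway gave no call either, where 0.512% of all features were called (4.08% with the block) and 14.7% had an unadjusted p under 0.05. Of the 83 other G2 and mitosis genes, 0 passed (limma; 7 at an unadjusted p under 0.05, 4 higher and 3 lower in MLPG; median 0.01; 0 with the block), and of the 44 S phase genes 0 passed (limma; 2 unadjusted; median 0.03; 0 with the block). The 6 with the smallest p among the former included parts of the anaphase-promoting complex on both sides: Anapc11, a catalytic subunit, at -0.26, Cdc16, a scaffold subunit, at 0.24, and Fzr1, the activator that replaces Cdc20 at mitotic exit and in G1, at 0.34. Fzr1 was at 13854, 10856 and 9964 in GP and at 14402, 15015 and 13972 in MLPG, without overlap but with GP replicate 1 just under the lowest MLPG array (adjusted p = 0.29 in limma). The condensin II gene Ncaph2 stood at -0.27, the centromere gene Cenpw at 0.22 and the dynein regulator Ndel1 at -0.33. Ccnb1 and Mki67 were not analysed here.

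Transcriptional regulators of G2 and mitosis genes were measured as well, 15 of 17 listed, and 0 passed (limma). At an unadjusted p under 0.05 in limma there were 2, near the 14.7% of all features, and with the block 0 passed. Foxm1, an activator of G2 and mitosis genes, was at 5322, 4082 and 4636 in GP and at 4282, 4779 and 4425 in MLPG. The values of Foxm1 overlapped, with GP replicate 1 highest and GP replicate 2 lowest (difference -0.05). Mybl2, which encodes B-Myb, was at 4763, 4815 and 5124 in GP and at 5026, 4502 and 5436 in MLPG, an overlap in which GP replicate 1 did not stand out (difference 0.02). The NF-Y subunit gene Nfyb differed by -0.30 and E2f5, a repressor E2F, by 0.40 (unadjusted p = 0.016 and 0.038; adjusted p = 0.23 and 0.32 in limma).

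The 9 dimmer genes were Ccnb2, Cks1b, Cenpe, Hmmr, Fbxo5, Racgap1, Kif20a, Cks2 and Bub1. Their brightest probes had mean log2 values from 6.93 (Ccnb2) to 7.31 (Bub1), under the filter at 7.48, and the dimmest measured genes were Nek2 at 7.56 and Nuf2 at 7.58. Ccnb2, a mitotic cyclin, was at 111, 128 and 130 in GP and at 119, 116 and 126 in MLPG, all below the median intensity of the arrays. At such levels background makes up an unknown share of the value, and a low value does not show that the gene is silent. In a fit without the filter, Racgap1, a regulator of cytokinesis, had the widest difference of the 9, at 0.16 (adjusted p = 0.67 in limma).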

How the data were processed

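Biotin-labelled RNA of each sample was hybridised to an Illumina bead array, per the labels' protocols. The submitters' processing notes name GenomeStudio, with a version and a normalization not given in the sources used here. The deposited intensity values of 45281 probes are on a linear scale and, once sorted, differ between the 6 columns by at most 0.14%, as quantile normalization leaves them. The lowest value is 88.2. A second table, whose 12 columns match no sample's labels, was not used. Precision is limited by the 3 arrays per group.

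Gene symbols came from the platform annotation: 34885 probes have 1 symbol, 18 several and 10378 none, and probes with several were not named. Values were taken to log2, probes with a mean above 7.48, the median of all probes, were kept (22640), and the brightest probe stood for a gene, giving 15440 features, 11348 of them named genes. MLPG and GP were compared with limma 3.58.1 in R 4.3.3 (lmFit, eBayes, no covariates), with Benjamini-Hochberg adjustment over all features and calls under 0.05. The fit was tested on simulated data with known changes in 200 features. It recovered 56% of them at 1.5-fold, 76% at 2-fold and 96% at 3-fold, with 6 false calls. A promoter was counted as holding an element where its letters stood on either strand.

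The genes and lists, among them 7 role groups, were chosen with earlier results of these data known. Any listed gene may be named; values on every array are given for the genes with the smallest p or widest difference in each role group and for Cdk1, Ccnb2, Plk1, Aurkb, Birc5, Top2a, Cdc20 and Cenpa, and, among others, for Fzr1, Foxm1 and Mybl2. Of other pathway genes the rule names the 6 with the smallest p, Ccnb1, Mki67, Foxm1, Mybl2 and regulators at an unadjusted p under 0.05. Mpo, Elane and Incenp, and the extremes of GP replicate 1, were chosen after their values were seen. The labels number the arrays 1 to 3 in each group. Arrays of the same number deviated together from their group means over all features (correlations of 0.38, 0.30 and 0.47, each above the 0.1 set for a pairing), so a blocked fit was added. The pairing comes from the data, not the labels.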

Additional observations from a re-analysis of the deposited data

How the results depend on the processing

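The count of G2 and mitosis genes called stayed at 0 in limma under each of 13 alternatives: the replicate block, no filter, cyclic loess, background subtraction of 90% of the lowest value, array weights, an intensity trend, the mean of a gene's probes, and each array left out in turn. Counts at an unadjusted p under 0.05 ran from 0 without GP replicate 3 or MLPG replicate 3 to 5 with the block or without GP replicate 1. The count of all features called, 79, was 630 with the replicate block, 146 without the filter and 220 with array weights, and between 2 and 348 with 1 array left out: leaving out GP replicate 2 gave 348, GP replicate 3 gave 25, MLPG replicate 1 or 3 gave 2 and MLPG replicate 2 gave 3. The replicate block changed no call among the listed genes. The median difference of the listed genes lay between -0.05 and 0.13, and 0.13 was the value without GP replicate 1; with the block it was 0.02. Their median level on GP replicate 1 lay between 0.17 and 0.22 over the 4 alternatives that can change it. With the mean of its probes, Top2a stood at -0.12, Kif11 at -0.09 and Cdk1 at 0.13. Quantile normalization hides any change shared by most probes, and dim probes limit 9 of the 49 genes.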

Other observations

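The excess on GP replicate 1 was also set beside promoter letters in genes outside the cell cycle lists. Those lists, among them the other G2 and mitosis genes with 77 of 83 above 0, were left out. Among tested genes in none of the cell cycle lists, 627 had a promoter with both CCAAT and TTTGAA, and GP replicate 1 exceeded the mean of its partners for 51.8% of them, with a median log2 difference of 0.01. For 4537 such genes with neither, the share was 50.3% and the median 0.00. Of the G2 and mitosis genes, 25 with both and 4 with neither were measured; GP replicate 1 was higher for each of these, with medians of 0.30 and 0.24. These values describe 1 array and carry no test, and any part of the letters in the excess was not tested.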
